A study of Mus musculus with 6 samples.

Results

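Gata1, Gfi1b, Nfe2, Klf1 and Zfpm1 are 5 transcription factor genes of the red cell and platelet lineages, out of 18193 genes measured in this series. They were taken by name, with earlier results of these data known. The array annotation assigned 6 probe sets to exactly 1 of them each, 2 for Zfpm1 and 1 for each of the others, and for Zfpm1 the probe set with the higher mean over all arrays was used first. The study compared Flk1-positive cells, sorted from day 4 embryoid bodies, of Ldb1+/+ (wild-type) and Ldb1-/- (knockout) mouse embryonic stem (ES) cells. Both kinds of ES cell were cultured in suspension without leukaemia inhibitory factor and with serum, transferrin, ascorbic acid and monothioglycerol. Total RNA of 3 biological replicates per genotype was hybridised to 6 Affymetrix mouse genome arrays. The part of Ldb1 that was deleted, and whether each genotype was 1 ES cell clone, are not given in the sources used here.

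GATA1 is a zinc finger protein that binds GATA motifs and is needed for red cells and megakaryocytes, the cells that shed platelets. It works with FOG1, the product of Zfpm1, which binds GATA1 rather than DNA, and it sits in a complex with TAL1, LMO2 and the adaptor LDB1. GFI1B is a zinc finger repressor that recruits the histone demethylase LSD1 (gene Kdm1a). NFE2 encodes the larger subunit of NF-E2, which pairs with a small Maf protein and is needed for platelet formation. KLF1 binds CACCC elements and activates globin genes in red cells. Flk1-positive cells of early embryoid bodies include the haemangioblast, the precursor in which this blood programme begins.

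The promoter windows are shown so that motifs these proteins read can be marked in them. Whether the motifs bear on the differences between genotypes was not tested. They run from 250 bases before to 50 bases after the RefSeq transcription start in GRCm38.p6, and 4 of the 5 genes were matched in that table (Gata1, Gfi1b, Klf1 and Zfpm1, not Nfe2). Capitals mark matches, on either strand, to a GATA motif (AGATAA with its variant AGATAG, and the forms that start with a T, which are TGATAA with its variant TGATAG) or to the CACCC-type motif CCNCNCCC, read by KLF1 and its relatives. No GATA match overlaps a CACCC-type match. The windows are chrX:7967861-7968160, minus strand, for Gata1, chr2:28621933-28622232, minus strand, for Gfi1b, and chr8:84901732-84902031, plus strand, for Klf1.
Gata1: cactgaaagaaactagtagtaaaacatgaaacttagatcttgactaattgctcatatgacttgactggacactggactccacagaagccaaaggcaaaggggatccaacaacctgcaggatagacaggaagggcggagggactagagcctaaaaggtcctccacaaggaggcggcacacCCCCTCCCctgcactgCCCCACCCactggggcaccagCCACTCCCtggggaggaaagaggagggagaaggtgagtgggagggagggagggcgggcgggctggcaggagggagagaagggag
Gfi1b: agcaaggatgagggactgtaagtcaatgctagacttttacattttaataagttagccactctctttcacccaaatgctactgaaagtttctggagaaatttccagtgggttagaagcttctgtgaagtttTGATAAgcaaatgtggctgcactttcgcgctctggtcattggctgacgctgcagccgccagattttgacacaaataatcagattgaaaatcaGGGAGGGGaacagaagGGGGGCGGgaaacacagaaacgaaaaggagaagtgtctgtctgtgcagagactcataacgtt
Klf1: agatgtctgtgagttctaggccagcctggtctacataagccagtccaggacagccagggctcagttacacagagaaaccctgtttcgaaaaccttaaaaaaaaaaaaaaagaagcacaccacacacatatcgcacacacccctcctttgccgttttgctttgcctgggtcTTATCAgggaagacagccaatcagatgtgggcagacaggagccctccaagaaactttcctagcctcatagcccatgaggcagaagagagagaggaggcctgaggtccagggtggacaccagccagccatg

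The Gfi1b window held 1 GATA match, TGATAA at positions -120 to -115, and the Klf1 window 1, on the other strand at -80 to -75. The Gata1 and Zfpm1 windows held 0. A GATA match occurs in 29.8% of all 32851 RefSeq promoter windows of this length. CACCC-type matches, here meaning CCNCNCCC, numbered 3 in Gata1, 2 in Gfi1b, 0 in Klf1 and 4 in Zfpm1, and 49.5% of all windows hold at least 1. This pattern is not a search for the letters CACCC. Of these matches only CCCCACCC in Gata1 contains those letters. They also occur outside any match, for example in the Klf1 and Gfi1b windows, so the 0 for Klf1 does not mean that CACCC is absent. The E-box CANNTG, read by TAL1 with its E-protein partners, matched 1 time in Gata1, 2 times in Gfi1b and 1 time in Klf1, and 72.3% of all windows hold it. In Gfi1b the GATA match was followed, after 1 base, by an E-box at -113 to -108. None of the 4 windows held the NF-E2 motif, which is found in 0.423% of all windows. These are matches of letters in a short window, and binding was not measured.

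**Figure D1:**
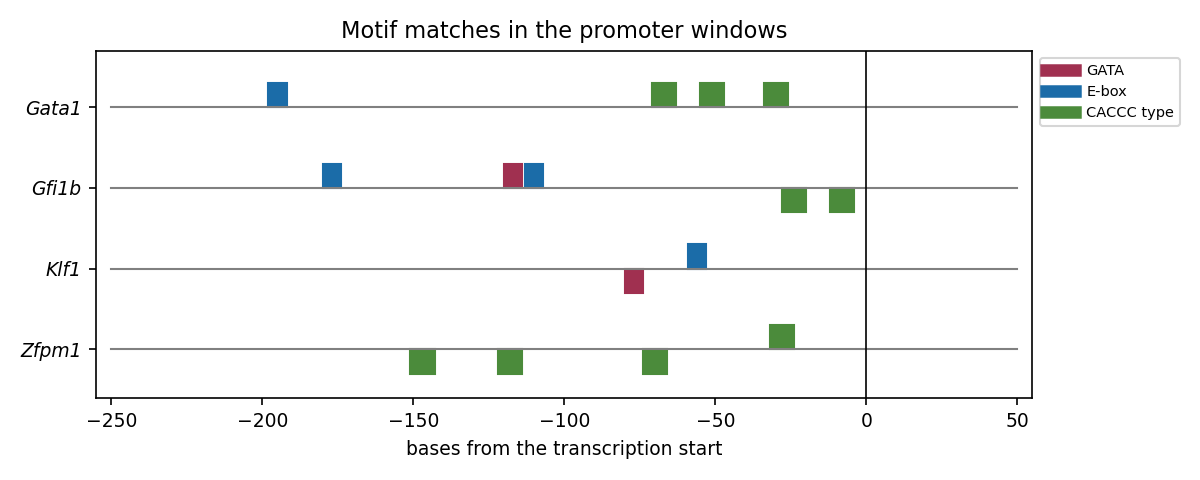
Positions of motif matches in the promoter windows of Gata1, Gfi1b, Klf1 and Zfpm1, in bases from the transcription start (position 0 on the horizontal axis). Boxes above a line are on the gene's strand and boxes below it on the other. GATA matches stand in Gfi1b and Klf1, and CACCC-type matches (CCNCNCCC) in Gata1, Gfi1b and Zfpm1.

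Values are log2 expression levels, so that a difference of 1 is a doubling. Array medians lay between 5.71 and 5.77. Replicate 3 of either genotype stood apart from the rest in the 5′ probe set for 18S ribosomal RNA, at 11.3 and 12.1 against 7.73 to 8.67 in the other arrays. The 5′ control probe sets of Gapdh (12.9 in each against 10.2 to 11.1) and Actb (13.0 and 13.2 against 11.2 to 11.5) were also higher in these arrays. Results are therefore also given for the other pairs. Deviations from the genotype means were correlated between arrays of the same replicate number (0.698, 0.350 and 0.446 for numbers 1, 2 and 3, over all probe sets), so each comparison was made without and with the number as a block. Kdr, the gene of Flk1, read 12.12 in wild-type and 11.70 in knockout arrays on average, lower in each pair (limma with the block, adjusted p = 0.493). Ldb1 itself read 7.78, 7.31 and 8.31 in wild-type and 7.25, 6.60 and 8.25 in knockout arrays of replicates 1, 2 and 3 (limma, adjusted p = 1.00 without and 0.481 with the block). The groups overlap, and where its probe set lies relative to the deletion is not given.

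With the replicate number as a block, Gfi1b, Gata1 and Nfe2 fell in knockout cells, by 3.00-fold, 2.48-fold and 2.22-fold. Without the block 0 of the 5 members passed the test at an adjusted p of 0.05 (limma, Benjamini-Hochberg over all genes), and these 3 had an unadjusted p under 0.05, as did 3.85% of all genes. With the block 4 had one, Zfpm1 besides, as did 8.94% of all genes. Of all genes 0.022% passed without the block. With it 0.231% were called lower and 0.341% were called in either direction, against 3 of the 5 members, all lower. Because the members were chosen with earlier results of these data known, this contrast is only a description. Klf1 and Zfpm1 did not pass either fit. All 5 members were lower in the knockout array of every pair, as were 14.9% of all genes.

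Gata1 read 7.50, 7.68 and 7.55 in wild-type and 6.27, 6.37 and 6.17 in knockout arrays. All 3 knockout arrays lay below all 3 wild-type arrays, and within each genotype the arrays differed by at most 0.20. The means were 7.58 ± 0.09 and 6.27 ± 0.10 (SD, n = 3). The difference of -1.31 had a 95% interval of -1.61 to -1.01 in either fit (limma, adjusted p = 0.0542 without and 0.0194 with the block). Among the 5 genes this difference varied least over the pairs, at -1.23, -1.31 and -1.38 in pairs 1, 2 and 3. Gata1 is on the X chromosome, whose 617 measured genes had a median difference of -0.02.

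Gfi1b read 7.56, 7.49 and 7.42 in wild-type and 5.78, 6.22 and 5.71 in knockout arrays. The genotypes did not overlap, with 1.20 between the lowest wild-type and the highest knockout array, and knockout replicate 2 was the least reduced. The means were 7.49 ± 0.07 and 5.90 ± 0.28 (SD, n = 3), and the difference of -1.58 had a 95% interval of -1.98 to -1.18, or -1.94 to -1.23 with the block (limma, adjusted p = 0.0879 and 0.0194). Of all genes, 22 differed by this much or more in that direction, Gfi1b included. The corresponding counts were 48 for Gata1 and 70 for Nfe2.

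Nfe2 read 6.16, 6.29 and 5.39 in wild-type and 4.77, 5.22 and 4.41 in knockout arrays. The replicate 3 arrays of both genotypes were the lowest, and wild-type replicate 3 lay only 0.17 above knockout replicate 2, so the groups were barely separate. The means were 5.95 ± 0.49 and 4.80 ± 0.40 (SD, n = 3). The difference of -1.15 had a 95% interval of -1.87 to -0.43 without the block and -1.48 to -0.82 with it (limma, adjusted p = 0.756 and 0.0334). By pair it was -1.39, -1.08 and -0.98. Wild-type levels of Nfe2 stood between percentiles 44.2 and 56.7 of all probe sets of their arrays, and knockout levels between 29.0 and 42.7, in a range where many probe sets read. The values come with no detection calls.

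**Figure D2:**
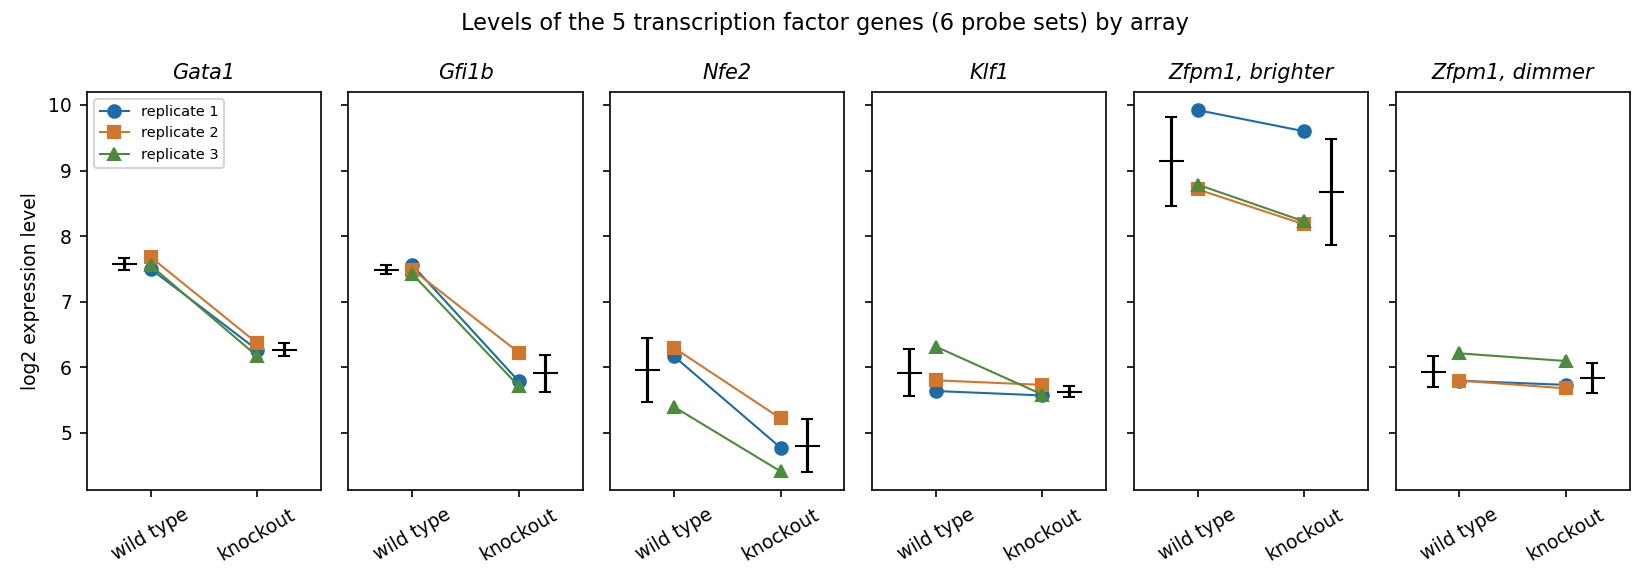
Log2 expression levels of the 6 probe sets of Gata1, Gfi1b, Nfe2, Klf1 and Zfpm1 in 3 wild-type and 3 knockout arrays. Coloured points are arrays, lines join arrays of the same replicate number, and black bars are means ± SD of each genotype. Gata1, Gfi1b and Nfe2 are lower in every knockout array than in any wild-type array, while Klf1 and both Zfpm1 probe sets overlap.

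Arrays of the genotypes did not overlap, with knockout arrays lower, for 3 of the 5 members, against 4.47% of all genes. In bulk RNA such as this, fewer cells of a kind and less RNA per cell cannot be told apart. The blocked calls were lost in 1 other set of features. With all 45037 probe sets tested in place of 1 per gene, the blocked adjusted p was 0.0502 for Gata1 and Gfi1b and 0.0865 for Nfe2 (limma), so that 0 members passed. Of all probe sets 0.0555% were called in that fit. Nfe2 also missed the threshold with the block without the arrays of number 1 (limma, adjusted p = 0.138), and with the number as a random block (0.145). Without both replicate 3 arrays the blocked differences were -1.27 for Gata1, -1.52 for Gfi1b and -1.23 for Nfe2, each past the threshold. That fit has few residual degrees of freedom and leans on the variance pooled over all genes. The same arrays without the block gave adjusted p of 0.370, 0.481 and 0.639 (limma), and 0 members passed.

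Klf1 read 5.64, 5.80 and 6.31 in wild-type and 5.57, 5.73 and 5.58 in knockout arrays. All values lay near the arrays' medians except that of wild-type replicate 3, the array with the lowest upper quartile (7.92) and the highest lower quartile (4.37). The means were 5.92 ± 0.35 and 5.63 ± 0.09 (SD, n = 3), and the difference of -0.29 had a 95% interval of -0.76 to 0.18, or -0.70 to 0.12 with the block (limma, adjusted p = 1.00 and 0.756). By pair it was -0.07, -0.07 and -0.73. Without wild-type replicate 3 it was -0.09. Neither interval reaches the difference of Gata1. However, Klf1 stood between percentiles 47.7 and 57.7 of all probe sets in every array, about where Gfi1b stood in knockout arrays (49.5 to 56.1). Without detection calls, it is not known whether Klf1 was expressed in wild-type cells and could fall as far.

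Zfpm1 read 9.92, 8.71 and 8.79 in wild-type and 9.60, 8.18 and 8.22 in knockout arrays by its brighter probe set. Both replicate 1 arrays were higher than the others, by more than the genotypes differed, and the groups overlap. The means were 9.14 ± 0.68 and 8.67 ± 0.81 (SD, n = 3). The difference of -0.47 had a 95% interval of -1.62 to 0.67 without the block and -0.78 to -0.16 with it (limma, adjusted p = 1.00 and 0.290). By pair it was -0.32, -0.53 and -0.56, and it ranged from -0.94 without knockout replicate 1 to -0.08 without wild-type replicate 1. It was -0.23 without knockout replicate 2 and -0.25 without knockout replicate 3.

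The dimmer Zfpm1 probe set read 5.79, 5.80 and 6.21 in wild-type and 5.73, 5.68 and 6.09 in knockout arrays, with replicate 3 the highest in both genotypes. Its difference was -0.10 (limma over all probe sets, adjusted p = 1.00 without and 0.958 with the block). The probe sets thus had the same sign and different order of arrays. The mean of both gave -0.29 for the gene.

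Klf1 and Zfpm1 are both on chromosome 8, where genes lay higher in knockout cells. Over its 932 measured genes the median difference was 0.15, and over the 606 of these with a mean level in the upper part of the array (above the median probe set) it was 0.26, with 0.31, 0.09 and 0.40 in pairs 1, 2 and 3. Klf1 and Zfpm1, also above that median, differed in the opposite direction. Such brighter genes had medians of 0.00 on chromosome X, 0.01 on chromosome 2 and -0.02 on chromosome 15, which hold Gata1, Gfi1b and Nfe2. The part of the chromosome in the Klf1 and Zfpm1 values was not tested.

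**Figure D3:**
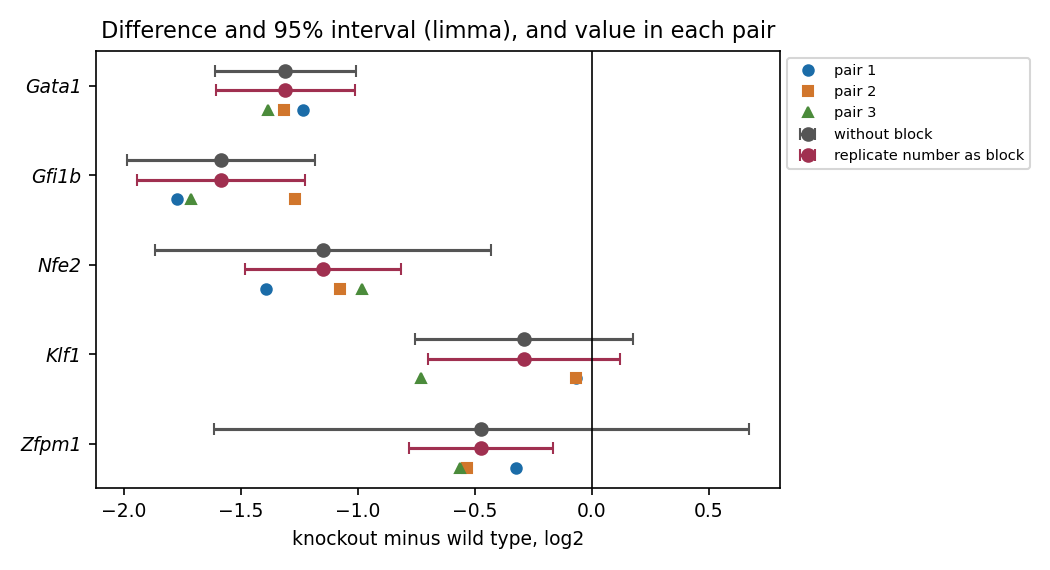
Knockout minus wild-type differences on the log2 scale for the 5 genes. Circles with bars are limma estimates with 95% intervals, grey without and red with the replicate number as a block, and small symbols are the 3 pairs. The intervals of Gata1, Gfi1b and Nfe2 lie below 0 in both fits, and that of Klf1 includes 0 in both.

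Whether the members differed by unequal amounts was tested for all 10 pairs of genes from the within-array difference of their log2 levels. The difference of Gata1 was 1.02 below that of Klf1 and that of Gfi1b 1.30 below it, both in all 3 array pairs (exact two-sided permutation test, p = 0.1 for each, adjusted p = 0.4). With 3 arrays against 3 the smallest p is 0.1, so no pair of genes could pass. The room that Klf1 had to fall is also not known, as its levels have no measured floor. By replicate pairs, 7 of the 10 comparisons had 1 sign in all 3 pairs, and each of these had the smallest p that an exact sign-flip test over 3 pairs allows, 0.25. Among them the difference of Gata1 minus that of Zfpm1 was -0.91, -0.78 and -0.82, and that of Gfi1b minus that of Zfpm1 was -1.45, -0.73 and -1.15. Gata1 and Gfi1b differed by 0.27 between them (exact p = 0.2, adjusted p = 0.4), within a range of 0.20 to 0.38 when each array was left out in turn. The other 7 comparisons had exact permutation p between 0.2 and 0.7 over unpaired arrays.

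The genes whose levels followed each member most closely over the 6 arrays were found by the root mean square difference of log2 levels after each gene's own mean was subtracted, among genes above the median level. Nearest to Gata1 were Hoxb2 (0.12), Hoxd1 (0.14), both homeobox genes of body axis patterning, and the growth factor gene Fgf3 (0.17). Nearest to Gfi1b were Fgf3 (0.11), Hoxb2 (0.19) and Gata1 itself (0.19). Gata1 and Gfi1b thus appeared in one neighbourhood, whose genes are low in all 3 knockout arrays. Hoxb2 read 8.98 ± 0.17 and 7.71 ± 0.20, and Fgf3 10.42 ± 0.14 and 9.03 ± 0.33, in wild-type and knockout arrays (SD, n = 3). These genes were chosen for this pattern, so their levels are a description.

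Nearest to Nfe2 were Spink1 (0.13), Prxl2a (0.14) and Nap1l2 (0.15), which share the low replicate 3 arrays. Between Nfe2 and Gata1 the measure was 0.33. Nearest to Klf1 were Fam25c (0.02), Wfikkn1 (0.04) and Pth2 (0.05), chosen, like the others, for their likeness, and highest in wild-type replicate 3. The high value that Klf1 shares with them is that of the array that stood apart in its quartiles. Nearest to Zfpm1 were Slit3 (0.12), Foxc2 (0.13) and Wdr81 (0.15), all highest in the replicate 1 arrays. The measure between Zfpm1 and the other members was 0.74 to 0.86.

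**Figure D4:**
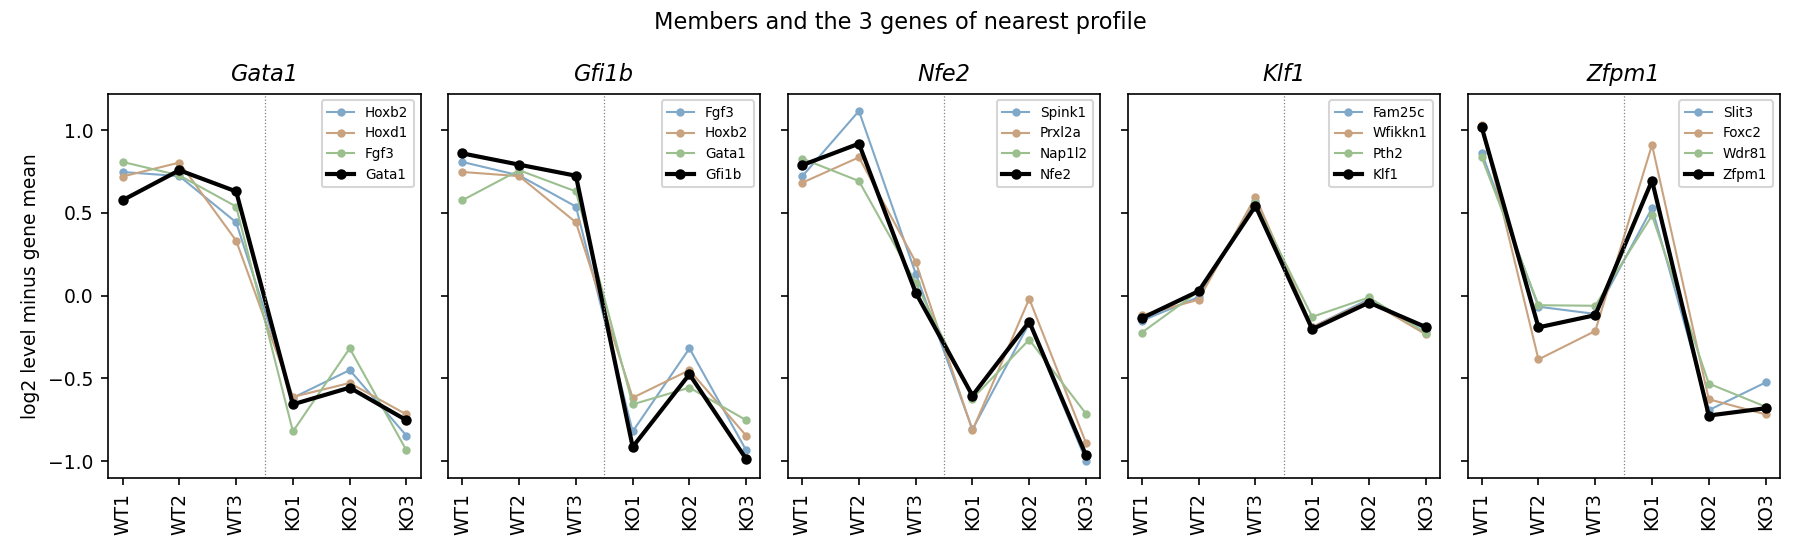
Log2 levels minus each gene's own mean in the 6 arrays (WT, wild type; KO, knockout; the digit is the replicate number), for each member in black and its 3 nearest genes in colour. Gata1 and Gfi1b step down between the genotypes, Nfe2 steps down with low replicate 3 arrays, Klf1 peaks in wild-type replicate 3 and Zfpm1 peaks in the replicate 1 arrays.

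Genes of proteins that act with these factors did not pass the adjusted threshold. In the list of 15 partners of the LDB1 complex and related blood factors 0 passed limma in either fit, with 8 lower, 7 higher and a median difference of -0.03, against -0.01 over all genes. At an unadjusted p under 0.05 (limma) there were 0 without the block and 8 with it, against 3.85% and 8.94% of all genes. Of the 8, 5 were lower (Fli1, Runx1, Lyl1, Cbfa2t3 and Ldb1) and 3 higher (Ssbp2, Lmo2 and Ssbp4). The list's differences ran from -1.04 for Fli1 to 0.69 for Ssbp2. Tal1 read 10.19, 10.69 and 9.83 in wild-type and 10.87, 10.55 and 9.33 in knockout arrays. Gata2, the relative of Gata1 that is active earlier in blood development, read 9.94, 9.97 and 9.07 against 10.25, 9.63 and 8.51. For both genes the arrays of the genotypes overlap widely. Their differences were 0.01 and -0.20, with blocked 95% intervals of -0.53 to 0.55 and -0.65 to 0.25. Runx1, needed for definitive blood emergence, read 8.52, 7.92 and 7.02 against 7.67, 6.80 and 6.36, lower in each pair with overlapping groups (difference -0.88; limma, adjusted p = 1.00 without and 0.0893 with the block).

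The measured partners of GFI1B were likewise not called, with 0 of 6 genes past the threshold in limma in either fit. At an unadjusted p under 0.05 there was 1 without the block, Gfi1, and 2 with it, Gfi1 and the corepressor gene Rcor3, which was higher by 0.47. Over all genes these shares were 3.85% and 8.94%. Kdm1a differed by -0.02, with a blocked 95% interval of -0.32 to 0.27. Gfi1 and Rcor3 are named for their unadjusted p, after their values were seen, and Kdm1a for its role. Gfi1, the close relative of Gfi1b, read 5.25, 4.69 and 4.41 in wild-type and 3.36, 3.89 and 3.81 in knockout arrays, a difference of -1.10 between groups that do not overlap (limma, adjusted p = 0.627 without and 0.197 with the block). Its knockout levels lie below the arrays' lower quartiles.

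NF-E2 needs a small Maf protein, and the genes Mafk, Mafg and Maff, with their CNC relatives, counted 0 of 8 past the threshold in limma in either fit, and 0 at an unadjusted p under 0.05 both without and with the block. Their differences ran from -0.21 to 0.13. Of 14 genes for FOG2 and for FOG1 partners (CtBP, the NuRD complex and Tacc3), 0 passed in either fit (limma, median difference -0.01), and 0 without and 1 with the block had an unadjusted p under 0.05. Of 5 other GATA genes 0 passed in either fit, with a median of -0.11, and 0 and 1 had such a p. Of 15 other KLF genes 0 passed in either fit, with a median of 0.08, and 0 and 4 had such a p, 1 lower and 3 higher. The 1 gene in each of the FOG and GATA lists was higher. Over all genes 3.85% had such a p without the block and 8.94% with it.

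Among 34 measured erythroid genes that GATA1, KLF1 or both are known to control, 27 were lower and 7 higher in knockout arrays, with a median difference of -0.08 against -0.01 over all genes, of which 53.7% were lower. However, only 6 of the 34 were lower in all 3 pairs, and 1 was higher in all 3. Over all genes these shares were 14.9% and 13.5%. Without the block 1 gene passed and with it 2, all lower, against 0.022% and 0.231% of all genes. Hbb-bh1, which encodes a globin chain of embryonic red cells, read 8.63, 8.80 and 9.08 in wild-type and 4.60, 5.37 and 4.86 in knockout arrays (difference -3.89; limma, adjusted p = 0.00494 without and 0.00101 with the block). Its groups lie far apart. Hbb-y, another embryonic globin gene, read 5.52, 5.38 and 4.47 against 3.51, 3.46 and 3.29, and fell with the block (difference -1.71; limma, adjusted p = 0.274 and 0.0251). Its probe set can bind several transcripts, and a more specific one gave -0.23 (limma with the block, adjusted p = 0.819). That probe set averaged 4.38 in wild-type and 4.15 in knockout arrays, near the arrays' lower quartiles (4.22 to 4.37). How far it could fall is not known.

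Alas2 and Gypc were the other 2 erythroid genes with an unadjusted p under 0.05, in either fit, and are named for that, after their values were seen. Alas2, which encodes the first enzyme of haem synthesis in red cells, read 6.11, 6.21 and 5.65 in wild-type and 5.33, 4.85 and 4.81 in knockout arrays, without overlap (difference -0.99; limma, adjusted p = 0.523 without and 0.0849 with the block). Gypc, a red cell membrane glycoprotein gene, differed by -0.78 (limma, adjusted p = 0.788 and 0.279). The erythropoietin receptor gene Epor differed by 0.01, with a blocked 95% interval of -0.29 to 0.31. Pairs 1, 2 and 3 gave list medians of 0.02, -0.06 and -0.29, the last from the arrays that stood apart in the 18S control. Wild-type replicate 3 also had the highest lower quartile of all arrays (4.37), and its part in the list median was not tested. For Gata1, Gfi1b and Nfe2 each pair showed the difference.

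Of 19 measured megakaryocyte and platelet genes 0 passed limma in either fit, while 2 lower and 1 higher had an unadjusted p under 0.05. With the block 1 lower and 1 higher had one. Over all genes the shares with such a p were 3.85% and 8.94%. The median difference was -0.07, and by pair it was 0.05, 0.03 and -0.36, negative only in pair 3. The 3 genes of the unblocked fit are named for that, after their values were seen. Itga2b, which encodes CD41 of early blood cells and platelets, read 7.80, 7.93 and 7.96 in wild-type and 6.65, 7.17 and 7.19 in knockout arrays, without overlap (difference -0.90; limma, adjusted p = 0.410 without and 0.0849 with the block). Nbeal2, needed for platelet granules, differed by -0.39 and Tubb1, a platelet tubulin gene that NF-E2 controls, by 0.53, with blocked adjusted p of 0.574 and 0.210 (limma). Other genes of this list were dim. Ppbp and Clec1b, for example, averaged 3.53 and 3.79 in wild-type arrays, below the arrays' lower quartiles (4.22 to 4.37). Without detection calls, it is not known whether such genes were expressed and could fall.

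Of 17 other transcription factor genes with roles in these lineages, 0 passed limma without the block and 2 fell with it. Without the block 3 had an unadjusted p under 0.05, all lower, and with it 7 had one, 6 lower and 1 higher. Over all genes 3.85% and 8.94% had such a p, and 0.231% were called lower with the block. The list's median difference was -0.07. Myb, needed for definitive progenitors, read 8.03, 8.82 and 7.88 against 6.16, 5.57 and 4.25. Ikzf1, a lymphoid regulator, read 8.85, 8.79 and 8.33 against 6.96, 6.94 and 5.30. Neither gene's groups overlap, and knockout replicate 3 was the lowest array for both (limma, adjusted p = 0.322 and 0.413 without the block, 0.0238 for each with it).

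**Figure D5:**
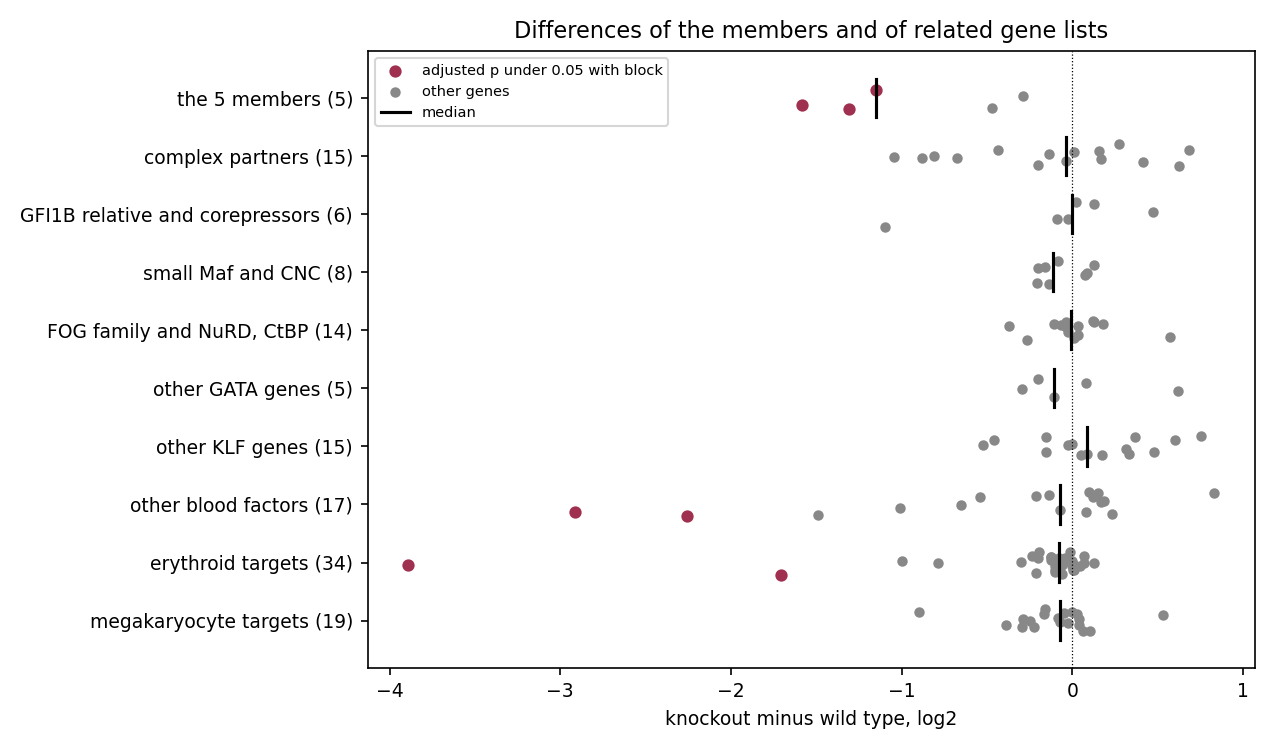
Knockout minus wild-type differences on the log2 scale for the 5 members and for genes of 9 related lists, with the number of measured genes in brackets. Points are genes, red where the adjusted p was under 0.05 with the block, and black ticks are medians. The members' median is -1.15 and the lists' medians lie between -0.11 and 0.08.

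Markers of other cells were read beside these results from summed linear levels, given as log2. The 6 leukocyte markers (Ptprc, Csf1r, Itgam, Cd68, Cd14 and Lyz2) summed to 8.46 to 8.52 in wild-type and 8.27 to 8.33 in knockout arrays. The sums were lower in knockout arrays without overlap, with 0 genes called. By gene, 3 of the 6 were lower and 3 higher, with a median difference of 0.03. The sum mostly follows the brightest, Csf1r and Cd68, which differed by -0.20 and -0.26, while Itgam was higher without overlap (0.24). The 6 endothelial markers summed to 8.32 to 8.68 in wild-type arrays, with 0 called. Knockout replicates 1 and 2 lay above all of these, at 9.25 and 9.43, and knockout replicate 3 below them, at 7.73. The median difference of these markers was 0.60, 0.52 and -0.70 in pairs 1, 2 and 3. The 7 cardiac mesoderm markers summed to 12.47 to 13.34 and 12.05 to 12.19, lower in knockout arrays without overlap, and 1 of them, Hand2, fell with the block (limma, adjusted p = 0.00103). The 5 haemangioblast markers (Kdr, Tal1, Etv2, Lmo2 and Fli1) summed to 13.33 to 13.68 and 13.42 to 14.08, with overlap and 0 called. By gene, 2 were lower (Fli1, -1.04, and Kdr, -0.42) and 3 higher (Lmo2, 0.62, Etv2, 0.46, and Tal1, 0.01). With the block Fli1, Kdr and Lmo2 had an unadjusted p under 0.05 (limma), as did 8.94% of all genes. Each of these 3 kept its sign in every pair. The 6 pluripotency markers summed to 10.60 to 10.98 and 10.47 to 11.55, and the 5 endoderm markers to 8.66 to 9.05 and 7.83 to 8.90, both with overlap and 0 called. The part of the mix of cells in the differences of Gata1, Gfi1b and Nfe2 was not tested.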

How the data were processed

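The authors deposited log2 expression levels per probe set for 6 arrays, and RMA and affy are the tools listed, without versions, in the submitters' processing notes. RMA as usually run brings all arrays to a common distribution, so a change in total RNA would not show. Of 45101 probe sets, 34945 had exactly 1 annotated gene. Symbols were updated by gene identifier through the RefSeq table of GRCm38.p6. The probe set with the highest mean was kept for each of 18193 genes. The comparison of genotypes used lmFit and eBayes of limma 3.58.1 (R 4.3.3), with p adjusted by Benjamini-Hochberg over all genes and a threshold of 0.05. A second model added the replicate number as a fixed block. The numbers were taken as pairs because each correlation exceeded 0.1; the labels do not say what they stand for. The number of arrays limits the precision. Members and gene lists were chosen with earlier results of these data known, the lists from textbook knowledge, and no list was tested as a set. Named genes were the members, their nearest 3 genes by profile, Ldb1, Kdr, partner genes, markers and list genes past the threshold, up to 4 per list; genes that no statement needed were left out, and Kdm1a, Epor and the small Maf genes were added for their roles. Alternatives were the block, left-out arrays, filters on dim genes, normalisation, variance models and the choice of probe set. Those on globin probe sets and on signs within pairs were chosen after seeing the data. Plots used matplotlib 3.10.9 (Python 3.11.15).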

Additional observations from a re-analysis of the deposited data

How the results depend on the processing

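All 5 members stayed lower in knockout arrays in every setting run, 25 for each gene and 23 for Nfe2, which was too dim for the filter on levels. Klf1 and Zfpm1 passed the threshold in 0 of them. Gata1 (-1.31) passed in 10, Gfi1b (-1.58) in 9 and Nfe2 (-1.15) in 5. Beside the block (3 members past the threshold), 3 also passed with the block and trended robust variance (limma, adjusted p = 0.00287, 0.00112 and 0.00713 for Gata1, Gfi1b and Nfe2) or the mean of a gene's probe sets (0.0134, 0.0134 and 0.0284). Gata1 and Gfi1b, 2 members, passed with the block and genes above the median level (0.0170 for both), with a random block (0.0109 and 0.0156) and with array weights (differences -1.35 and -1.46; 0.00675 and 0.0117). Only Gata1, 1 member, passed with probe sets averaged and no block (0.0320). With the block and without pair 1, 2 or 3, the differences were -1.35, -1.31 and -1.27 for Gata1, -1.49, -1.74 and -1.52 for Gfi1b and -1.03, -1.19 and -1.23 for Nfe2, and 2, 3 and 3 members passed. These fits have few residual degrees of freedom, so their calls lean on the variance pooled over all genes. Without pair 3 and without the block, 0 members passed. With 1 array left out and no block, 0 members passed, and the differences ran from -1.36 to -1.26 for Gata1, -1.74 to -1.49 for Gfi1b, -1.43 to -0.96 for Nfe2, -0.43 to -0.09 for Klf1 and -0.94 to -0.08 for Zfpm1. The causes of these changes were not tested. The erythroid genes past the threshold numbered 2 with the block, and 0 to 2 with 1 array left out: leaving out replicate 2 of the wild type or 3 of the knockout gave 0, and leaving out wild-type replicate 3 gave 2. The partner and megakaryocyte lists stayed at 0. The replicate block changed no other call among the members. With no detection calls, low levels such as those of Klf1 and Nfe2 in knockout arrays have no measured floor.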
